A study of Mus musculus with 8 samples.

Results

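The genes described here make cholesterol, or sense, move and store it: the enzymes from acetyl-CoA to cholesterol, the SREBP2 sensor system and the main sterol carriers and esterifying enzymes. They were chosen by name from the known pathway, 29 genes in all, of which 27 were measured among 19560 genes with a value on the arrays. The genes Acat2 and Hmgcs1, whose products start the pathway, had no probe set carrying their symbol alone and were not analysed here.

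Liver RNA of 8 male mice aged 6 weeks was measured, with 1 array per mouse from tissue snap-frozen after excision. In 4 mice the kinase TAK1 and the protease caspase 8 had both been deleted in liver parenchymal cells (Tak1/Casp8). In the other 4 mice TAK1 had been deleted in the same cells and Rip3, a kinase of programmed necrosis, was knocked out in the animal (Tak1/Rip3). The study's question was which genes depend on whether cells die by apoptosis or by programmed necrosis. TAK1 loss was thus shared by both groups. No TAK1-intact liver was analysed here, so a rise in Tak1/Casp8 livers could as well be called a reduction in Tak1/Rip3 livers. The deletions in parenchymal cells leave the genes intact in other liver cells, and the labels name no promoter that drives the recombinase.

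Cholesterol is built from acetyl-CoA through mevalonate, isoprenoid units, squalene and lanosterol, and the liver is a main site of this synthesis. When sterols are low in the endoplasmic reticulum, the escort protein SCAP carries the precursor of SREBP2 to the Golgi, where it is cut, and the freed factor switches on nearly every enzyme of the route. When sterols are ample, INSIG proteins hold SCAP back.

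A bound SREBP acts at sterol response elements, often beside CCAAT boxes for the factor NF-Y, so the start regions of 5 genes are shown here: 3 that hold the first letters of a sterol response element, and 2 that do not. Each runs 5′ to 3′ on the gene's strand, from 250 bases before to 50 bases after the RefSeq start, in build GRCm38.p6. Capitals mark CCAAT, which reads ATTGG on the other strand, and ATCACNC, the first part of the element. The regions are Idi1 at chr13:8885356-8885655, plus strand, Nsdhl at chrX:72918271-72918570, plus strand, Srebf2 at chr15:82147019-82147318, plus strand, Tm7sf2 at chr19:6067801-6068100, minus strand, and Ebp at chrX:8193463-8193762, minus strand.
Idi1: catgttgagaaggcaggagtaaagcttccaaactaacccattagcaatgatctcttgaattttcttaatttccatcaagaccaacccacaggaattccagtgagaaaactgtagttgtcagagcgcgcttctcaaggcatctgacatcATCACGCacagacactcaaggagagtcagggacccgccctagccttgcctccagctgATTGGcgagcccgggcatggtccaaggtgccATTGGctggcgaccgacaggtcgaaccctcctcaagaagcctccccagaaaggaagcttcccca
Nsdhl: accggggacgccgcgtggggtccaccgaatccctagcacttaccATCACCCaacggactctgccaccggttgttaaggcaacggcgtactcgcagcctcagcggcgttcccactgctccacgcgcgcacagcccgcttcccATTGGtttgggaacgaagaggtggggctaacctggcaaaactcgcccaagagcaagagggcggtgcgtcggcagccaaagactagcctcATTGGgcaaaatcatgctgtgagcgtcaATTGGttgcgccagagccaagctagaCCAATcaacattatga
Srebf2: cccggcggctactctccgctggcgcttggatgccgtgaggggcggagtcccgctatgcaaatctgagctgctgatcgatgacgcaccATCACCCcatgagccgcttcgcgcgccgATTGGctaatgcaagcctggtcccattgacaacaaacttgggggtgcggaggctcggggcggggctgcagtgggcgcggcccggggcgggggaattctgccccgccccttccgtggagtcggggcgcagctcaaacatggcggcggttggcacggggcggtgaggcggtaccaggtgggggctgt
Tm7sf2: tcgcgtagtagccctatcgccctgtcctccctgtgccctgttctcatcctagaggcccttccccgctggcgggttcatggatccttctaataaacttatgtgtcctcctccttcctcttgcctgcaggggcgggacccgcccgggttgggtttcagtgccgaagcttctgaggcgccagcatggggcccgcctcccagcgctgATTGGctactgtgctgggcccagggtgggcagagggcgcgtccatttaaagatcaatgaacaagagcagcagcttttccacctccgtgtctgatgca
Ebp: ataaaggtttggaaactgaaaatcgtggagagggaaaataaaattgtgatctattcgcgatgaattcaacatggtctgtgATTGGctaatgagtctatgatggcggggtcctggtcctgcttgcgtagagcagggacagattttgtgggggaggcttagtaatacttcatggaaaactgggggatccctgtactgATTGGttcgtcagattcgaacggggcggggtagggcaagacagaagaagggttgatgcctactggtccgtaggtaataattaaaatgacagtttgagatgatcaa

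RefSeq start regions were at hand for 23 of the 29 genes. The letters CCAAT stood on either strand in 21 of these 23 genes and in 15 of 16 enzymes of synthesis with a region, against 6438 of 15344 measured genes with a region, and 37.4% of all 32851 regions. The Ebp region held 2 such boxes, the Nsdhl region 4, and the Tm7sf2 region 1. The GC box GGGCGG stood in 21 of 23 genes, against 53.8% of measured genes and 35.7% of all regions. A fuller sterol response element, TCACNCCAC, was found in 1 of 23 genes, Hmgcs1, against 1.43% of measured genes and 1.24% of all regions. Its first part, ATCACNC, which shares the letters TCACNC with it, was searched after that result was seen and stood in 3 of 23 genes, against 8.88% of measured genes and 8.98% of all regions. It began 102 bases before the start in Idi1 (-102), and at -206 in Nsdhl and -163 in Srebf2. These matches describe letters in short windows, and no binding was measured.

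Of the 17 measured enzymes of synthesis, 9 rose in Tak1/Casp8 livers and none fell (limma, adjusted p under 0.05 over all genes). They were Pmvk, Idi1, Fdps, Fdft1, Sqle, Lss, Cyp51, Tm7sf2 and Nsdhl, by 1.53-fold to 2.00-fold. Over all genes 2.64% rose and 4.05% fell by the same test, 6.69% in all. None of the 10 measured genes of sensing, transport and esterification passed it, though 5 had an unadjusted p under 0.05, 3 of them higher and 2 lower in Tak1/Casp8 livers. All 27 genes lay above percentile 50 of mean level. When only the 9780 genes above it were tested, 1337 passed in either direction. Of the 27, 12 then passed, all higher, among them Insig1 (limma adjusted p = 0.0458). A test with separate variances and no moderation called none of the 27 genes and 115 of all genes. The median difference, Tak1/Casp8 minus Tak1/Rip3 as throughout, was 0.74 on the log2 scale over the 17 enzymes, 0.06 over the 10 other genes and 0.01 over all genes. Differences lay above 0 in 15 of 17 enzymes, with Ebp and Ggps1 below 0, against 52.6% of all genes. The enzymes were picked by name with earlier results of these data known, so the list itself carries no test. With 1 array left out at a time, between 6 and 14 of the 27 genes passed. The count was 6 without Tak1/Casp8 replicate 2 or Tak1/Rip3 replicates 1 or 4. It was 14 without Tak1/Rip3 replicate 2, the array of its group nearest the Tak1/Casp8 livers in the enzymes.

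**Figure D1:**
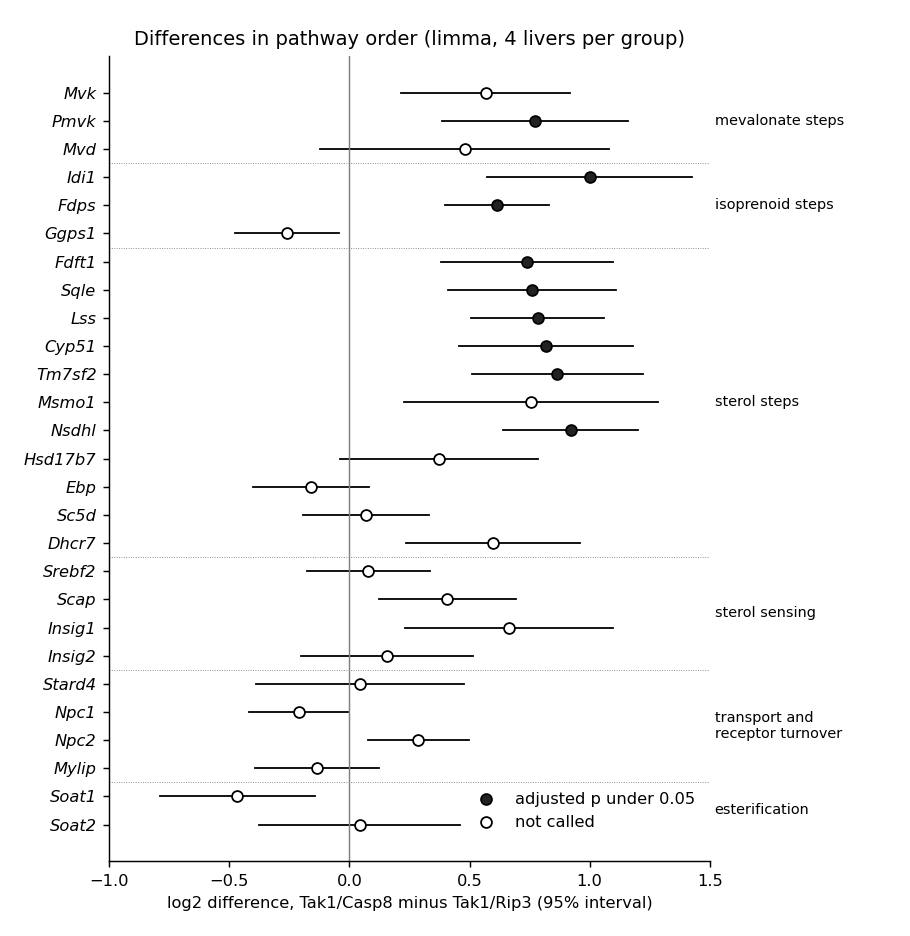
Difference of each measured gene in log2 intensity, Tak1/Casp8 minus Tak1/Rip3, with its 95% interval from limma (n = 4 arrays per group), ordered by role in the pathway. The 9 genes that passed the threshold are all enzymes of synthesis and lie at 0.61 or above, and the genes of sensing, transport and esterification lie between -0.47 and 0.66.

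Array medians lay between 8.06 and 8.16 and correlations between arrays across genes lay between 0.975 and 0.993. The targeted genes were checked against the labels. Casp8 measured 9.97 ± 0.13 in Tak1/Casp8 and 11.27 ± 0.13 in Tak1/Rip3 livers (SD, n = 4 each, limma adjusted p = 0.000123). Ripk3 measured 7.90 ± 0.09 in Tak1/Casp8 and 6.92 ± 0.38 in Tak1/Rip3 livers (SD, n = 4 each, limma adjusted p = 0.00782), but its brightest probe set differed by -0.036 only. Map3k7, the gene of TAK1, whose deletion both groups carry, measured 9.85 ± 0.13 in Tak1/Casp8 and 9.93 ± 0.10 in Tak1/Rip3 livers (SD, n = 4 each). A list of 12 hepatocyte genes, among them albumin, had a median difference of -0.02, with 1 higher call and no lower call. At an unadjusted p under 0.05 stood 3 of them, all higher. These were the called Serpina1a (0.96, from 1 probe set), Tat (0.50) and Pck1 (0.49). The mean deviation of the 12 from each gene's mean over all arrays was 0.08, 0.11, -0.06 and 0.15 in Tak1/Casp8 livers, against -0.10, -0.06, -0.03 and -0.09 in Tak1/Rip3 livers. All 11 measured genes of dividing cells fell, with a median of -1.54. Of the other cell type lists, stellate cell markers had 2 of 10 lower calls and a median of -0.35, and T and NK cell markers had none of 9 called, 3 of them at an unadjusted p under 0.05, and a median of -0.14. Cholangiocyte markers had 1 of 8 called in each direction, with Prom1 lowest at -1.76, and B and plasma cell markers had 2 of 5 lower and 1 higher. Mean deviations of the T and NK cell list lay from -0.11 to -0.04 in Tak1/Casp8 and from 0.03 to 0.17 in Tak1/Rip3 livers, and those of the other 3 lists overlapped. Over all genes 2.64% were called higher and 4.05% lower, so a short list can hold no call at these shares. The part of any of these lists in the enzymes' differences was not tested. In bulk liver, fewer cells of a type and less RNA per cell cannot be told apart. The p-values reflect the spread between these animals, and the labels tell nothing of litter, cage or feeding.

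Among the mevalonate steps 1 of 3 measured genes rose. Pmvk, phosphomevalonate kinase, had log2 intensities of 9.31, 9.76, 9.32 and 10.06 in Tak1/Casp8 livers, against 8.80, 9.11, 8.67 and 8.77 in Tak1/Rip3 livers. The groups did not overlap, and replicates 2 and 4 of Tak1/Casp8 stood highest. The difference was 0.77 ± 0.17 (SE, limma adjusted p = 0.0264, n = 4 per group), or 1.71-fold. It was lost from the call without Tak1/Casp8 replicate 2 or Tak1/Rip3 replicates 1, 3 or 4 (adjusted p 0.0739 to 0.0783).

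Mvk, mevalonate kinase, which puts the first phosphate on mevalonate, measured 9.77, 9.96, 9.42 and 9.70 in Tak1/Casp8 livers, against 9.00, 9.47, 9.28 and 8.83 in Tak1/Rip3 livers. Only replicate 3 of Tak1/Casp8 lay below the highest Tak1/Rip3 array. The difference of 0.57 (95% interval 0.21 to 0.92) missed the threshold (limma adjusted p = 0.0626), but passed it without Tak1/Casp8 replicate 3 (0.0488) or Tak1/Rip3 replicate 2 (0.0321). Mvd, mevalonate diphosphate decarboxylase, which forms the isoprenoid unit, measured 9.28 ± 0.34 in Tak1/Casp8 and 8.80 ± 0.59 in Tak1/Rip3 livers (SD, n = 4 each). Its Tak1/Rip3 replicate 2 stood at 9.66, level with the highest Tak1/Casp8 array at 9.65, and the other 3 Tak1/Rip3 arrays lay between 8.41 and 8.70. Without that array the difference of 0.48 became 0.77 (adjusted p = 0.0381).

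Among the isoprenoid steps, the enzymes Idi1 and Fdps rose and Ggps1 did not. Idi1, which interconverts both isoprenoid building blocks, measured 11.81, 12.16, 11.40 and 12.28 in Tak1/Casp8 livers, against 10.75, 11.15, 11.08 and 10.66 in Tak1/Rip3 livers. Every Tak1/Casp8 array lay above every Tak1/Rip3 array. Its difference of 1.00 ± 0.19 (SE, limma adjusted p = 0.0131) was the largest of the 27 genes, and all 9 of its probe sets lay above 0, from 0.56 to 1.42. The median of those 9 differences was 0.84, below the gene value, which is taken per array from probe set levels. By such a median Tm7sf2 stood higher, at 0.91.

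Fdps, farnesyl diphosphate synthase, measured 13.16, 13.35, 13.08 and 13.38 in Tak1/Casp8 livers, against 12.66, 12.55, 12.64 and 12.66 in Tak1/Rip3 livers. Both groups were narrow, and the gap between them was wider than either group's range. The difference was 0.61 ± 0.10 (SE, limma adjusted p = 0.00587). With the brightest of its 5 probe sets it was 0.33 (adjusted p = 0.0918). Ggps1, which extends farnesyl diphosphate for protein prenylation and so lies off the sterol route, measured 8.23, 8.17, 8.15 and 8.09 in Tak1/Casp8 livers, against 8.41, 8.62, 8.32 and 8.32 in Tak1/Rip3 livers. All 4 Tak1/Casp8 arrays lay below the others, and the difference of -0.26 (95% interval -0.47 to -0.04) missed the threshold (limma adjusted p = 0.153).

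**Figure D2:**
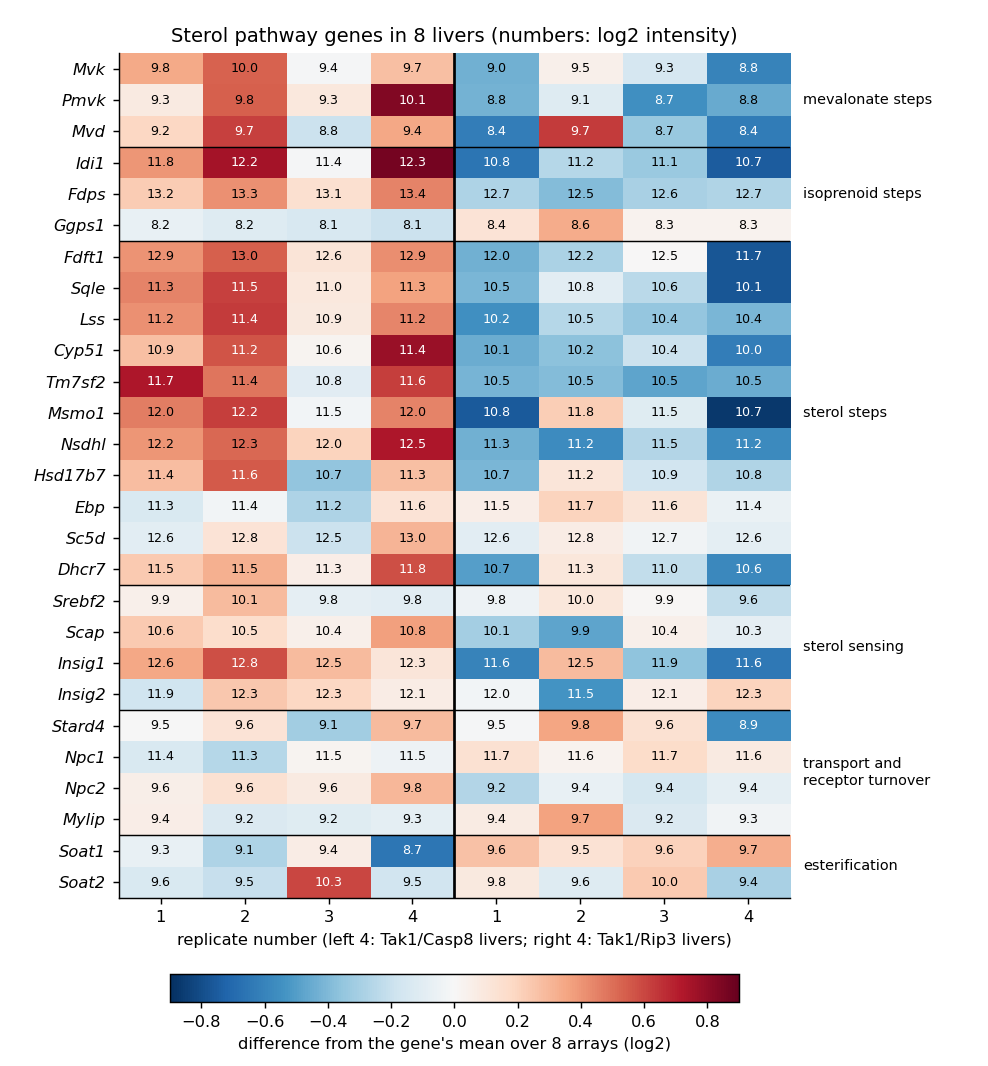
Log2 intensity of each measured gene on each array, 1 row per gene and 1 column per liver, with the 4 Tak1/Casp8 arrays left of the 4 Tak1/Rip3 arrays. The number in each cell is the value and the colour its difference from the gene's mean over 8 arrays, red above and blue below. The rows of Lss and Nsdhl change colour at the line between the groups, and the row of Srebf2 stays pale throughout.

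Of the 11 sterol steps 6 rose, a share near that of all measured enzymes of synthesis, 9 of 17. The first 3 enzymes of the branch, which make squalene, oxidise it and close it into lanosterol, all rose. Fdft1, squalene synthase, measured 12.87, 13.00, 12.58 and 12.88 in Tak1/Casp8 livers, against 12.03, 12.18, 12.47 and 11.69 in Tak1/Rip3 livers, a difference of 0.74 ± 0.16 (SE, limma adjusted p = 0.0224). Sqle, squalene epoxidase, a rate-limiting step, measured 11.34, 11.50, 10.98 and 11.25 in Tak1/Casp8 livers, against 10.48, 10.79, 10.64 and 10.12 in Tak1/Rip3 livers, a difference of 0.76 ± 0.16 (SE, limma adjusted p = 0.0185). In both genes Tak1/Casp8 replicate 3 was the lowest of its group and the groups still did not overlap. Fdft1 lost its call without Tak1/Casp8 replicates 1 or 2 or Tak1/Rip3 replicates 1 or 4 (adjusted p 0.0523 to 0.0685). Sqle lost it without Tak1/Casp8 replicate 2 or Tak1/Rip3 replicate 1 (adjusted p 0.0576 each). With the brightest probe set alone Fdft1 differed by 0.42 (adjusted p = 0.287) and Sqle by 0.48 (adjusted p = 0.0716).

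Lss, lanosterol synthase, measured 11.17, 11.39, 10.85 and 11.20 in Tak1/Casp8 livers, against 10.21, 10.51, 10.42 and 10.35 in Tak1/Rip3 livers. The lowest Tak1/Casp8 array stood above the highest Tak1/Rip3 array, and all 22 of its probe sets lay above 0, from 0.55 to 1.14. The difference was 0.78 ± 0.12 (SE, limma adjusted p = 0.00587), or 1.72-fold. With the brightest probe set alone it was 0.56 (adjusted p = 0.145).

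Past lanosterol, Cyp51, Tm7sf2 and Nsdhl rose. Cyp51, which takes a methyl group off lanosterol, measured 10.86, 11.16, 10.61 and 11.37 in Tak1/Casp8 livers, against 10.15, 10.22, 10.40 and 9.97 in Tak1/Rip3 livers. The groups did not overlap, and Tak1/Casp8 replicate 4 stood highest. The difference was 0.82 ± 0.16 (SE, limma adjusted p = 0.0154), and it lost its call without Tak1/Rip3 replicate 4 (adjusted p = 0.0518) or with the brightest probe set alone (adjusted p = 0.0515). Tm7sf2, the sterol reductase of the next step, measured 11.66, 11.41, 10.83 and 11.56 in Tak1/Casp8 livers, against 10.52, 10.54, 10.46 and 10.49 in Tak1/Rip3 livers. Its Tak1/Rip3 arrays lay close together, and the groups did not overlap in any of its 11 probe sets. The difference was 0.87 ± 0.16 (SE, limma adjusted p = 0.0118).

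Nsdhl belongs, with Msmo1 and Hsd17b7, to the complex that removes the remaining extra methyl groups. It measured 12.16, 12.28, 11.96 and 12.49 in Tak1/Casp8 livers, against 11.33, 11.19, 11.50 and 11.18 in Tak1/Rip3 livers, a difference of 0.92 ± 0.13 (SE, limma adjusted p = 0.00293) and the smallest adjusted p of the 27 genes. The groups did not overlap, and 9 of 10 probe sets lay above 0. The gene value lay above the differences of 7 of these 10, whose median was 0.75 and lowest -0.34. Msmo1, the oxidase of the complex, measured 12.03, 12.19, 11.55 and 12.01 in Tak1/Casp8 livers, against 10.81, 11.79, 11.46 and 10.70 in Tak1/Rip3 livers. Tak1/Rip3 replicates 2 and 3 came near or above the lowest Tak1/Casp8 array, and the difference of 0.76 (95% interval 0.23 to 1.28) missed the threshold (limma adjusted p = 0.0926), passing it without Tak1/Rip3 replicate 2 (0.0289). Hsd17b7, the ketone reductase of the complex, differed by 0.37 (95% interval -0.04 to 0.78, limma adjusted p = 0.286).

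None of the last 3 enzymes passed. Dhcr7, the reductase that ends one branch in cholesterol, measured 11.46, 11.54, 11.28 and 11.81 in Tak1/Casp8 livers, against 10.73, 11.33, 11.00 and 10.64 in Tak1/Rip3 livers. Tak1/Rip3 replicate 2 lay just above the lowest Tak1/Casp8 array and the other 3 below it. The difference of 0.60 (95% interval 0.24 to 0.96) fell just short (limma adjusted p = 0.0568), and passed without Tak1/Rip3 replicate 2 (0.0191). Its brightest probe set differed by 0.01 only. Ebp, the sterol isomerase, averaged 11.39 ± 0.17 in Tak1/Casp8 and 11.55 ± 0.11 in Tak1/Rip3 livers (SD, n = 4 each), a difference of -0.16 (95% interval -0.40 to 0.08, limma adjusted p = 0.452), and 5 of its 6 probe sets lay below 0. Sc5d, the desaturase before Dhcr7, differed by 0.07 (95% interval -0.19 to 0.33, limma adjusted p = 0.794).

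The arrays of each group kept much the same order from enzyme to enzyme. Tak1/Casp8 replicate 3 was the lowest of its group in 15 of 17 enzymes, and replicate 4 or 2 the highest in 15. Tak1/Rip3 replicate 2 was the highest of its group in 13 of 17, and replicate 4 the lowest in 11. The mean deviation of the 17 enzymes from their means over all arrays was 0.27, 0.45, -0.03 and 0.45 in Tak1/Casp8 livers, against -0.39, -0.06, -0.21 and -0.48 in Tak1/Rip3 livers. The groups did not overlap, but Tak1/Casp8 replicate 3 and Tak1/Rip3 replicate 2 lay close together. Neutrophil markers were highest in that Tak1/Casp8 replicate, with a mean deviation of 0.67 against -0.23 to -0.13 in the other 3 of its group and -0.31 to 0.36 in Tak1/Rip3 livers. Their part in the enzyme values was not tested. Since these 2 arrays were picked as the nearest between the groups, a larger difference without them was fixed by the choice. Without both, 15 of 27 genes passed and the enzyme median was 0.91.

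**Figure D3:**
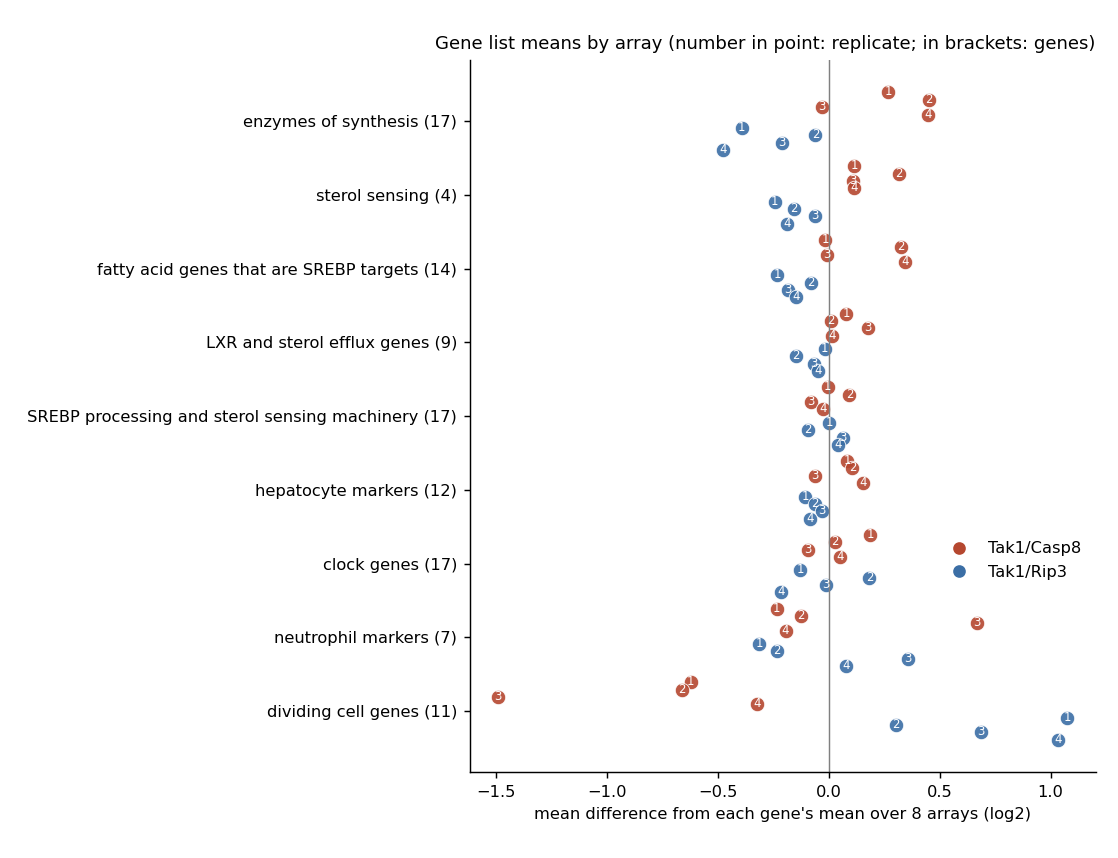
Mean deviation of a gene list from its genes' means over 8 arrays (log2), 1 numbered point per array, with the Tak1/Casp8 points above the Tak1/Rip3 points of each list. The 17 enzymes lie between -0.03 and 0.45 in Tak1/Casp8 livers and between -0.48 and -0.06 in Tak1/Rip3 livers, the dividing cell genes lie the other way round, and the clock genes and neutrophil markers overlap.

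None of the 4 sensing genes passed. Srebf2, which encodes SREBP2, measured 9.91, 10.15, 9.78 and 9.77 in Tak1/Casp8 livers, against 9.82, 9.96, 9.87 and 9.64 in Tak1/Rip3 livers. The arrays interleaved, and the difference was 0.08 (95% interval -0.18 to 0.33, limma adjusted p = 0.756). Insig1, which is itself a target of SREBP, measured 12.56, 12.80, 12.50 and 12.32 in Tak1/Casp8 livers, against 11.61, 12.50, 11.86 and 11.57 in Tak1/Rip3 livers. Of the Tak1/Rip3 arrays only replicate 2 reached the Tak1/Casp8 range, and the difference of 0.66 (95% interval 0.23 to 1.10, limma adjusted p = 0.0743) passed without that array (0.00757). All 5 of its probe sets lay between 0.55 and 0.75.

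Insig2, the other retention protein, measured 11.89, 12.31, 12.26 and 12.14 in Tak1/Casp8 livers, against 12.04, 11.53, 12.13 and 12.27 in Tak1/Rip3 livers. The groups overlapped, with a difference of 0.16 (95% interval -0.20 to 0.51, limma adjusted p = 0.637). Scap, the escort, measured 10.62, 10.54, 10.43 and 10.75 in Tak1/Casp8 livers, against 10.08, 9.90, 10.43 and 10.30 in Tak1/Rip3 livers, a difference of 0.41 (95% interval 0.12 to 0.69, limma adjusted p = 0.0932). The lowest Tak1/Casp8 array and the highest Tak1/Rip3 array were level. The gene value lay above the differences of 22 of its 24 probe sets, whose median was 0.15. Another 17 genes of SREBP processing, from Golgi proteases to coat proteins of the escort route, gave no call, against 6.69% of all genes. Their median difference was -0.04, and 3 had an unadjusted p under 0.05.

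Carriers and esterifying enzymes gave no call, against 6.69% of all genes. Of the lysosomal exporters, Npc1 measured 11.42 ± 0.12 in Tak1/Casp8 and 11.63 ± 0.06 in Tak1/Rip3 livers (SD, n = 4 each), and Npc2 measured 9.65 ± 0.11 in Tak1/Casp8 and 9.36 ± 0.09 in Tak1/Rip3 livers. Groups did not overlap in either gene, in opposite directions, and limma adjusted p was 0.226 and 0.106. For Npc2 the median of the 7 probe set differences was -0.03. Stard4, a sterol carrier of the cytosol, differed by 0.04 (95% interval -0.39 to 0.48), and Mylip, which marks lipoprotein receptors for breakdown, by -0.14 (limma adjusted p = 0.563).

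Soat1, which esterifies cholesterol in many cell types including macrophages, measured 9.29, 9.08, 9.43 and 8.71 in Tak1/Casp8 livers, against 9.62, 9.49, 9.57 and 9.69 in Tak1/Rip3 livers. Every Tak1/Casp8 array lay below every Tak1/Rip3 array, and none of its 19 probe sets lay above 0. The difference of -0.47 (95% interval -0.79 to -0.14) missed the threshold (limma adjusted p = 0.0895). The 10 macrophage markers showed no call, against 6.69% of all genes. Their median was 0.11, 3 had an unadjusted p under 0.05, and their part in Soat1 was not tested. Soat2, the form of hepatocytes in mice, differed by 0.04 (95% interval -0.38 to 0.46, limma adjusted p = 0.931). In all, 11 of 27 genes had groups that did not overlap with Tak1/Casp8 higher, against 6.33% of all genes, and 3 with Tak1/Casp8 lower, against 8.3%.

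Probe sets are each about an exon in size. Of 312 probe sets of the 27 genes, 20 rose and none fell (limma adjusted over all 223771 probe sets, where 0.542% rose and 1.09% fell). Of the 20, 19 lay in 8 of the 9 called enzymes, with none in Fdft1, and 1 lay in Dhcr7. In the 9 called enzymes 92 of 94 probe sets lay above 0, which largely follows from their having been called on the median of those same probe sets. In the 8 other enzymes 53 of 68 lay above 0, and in the 10 other genes 78 of 150, against 50.6% of all probe sets. Without Tak1/Casp8 replicate 2, or Tak1/Rip3 replicates 1 or 4, no probe set of the 27 genes passed.

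**Figure D4:**
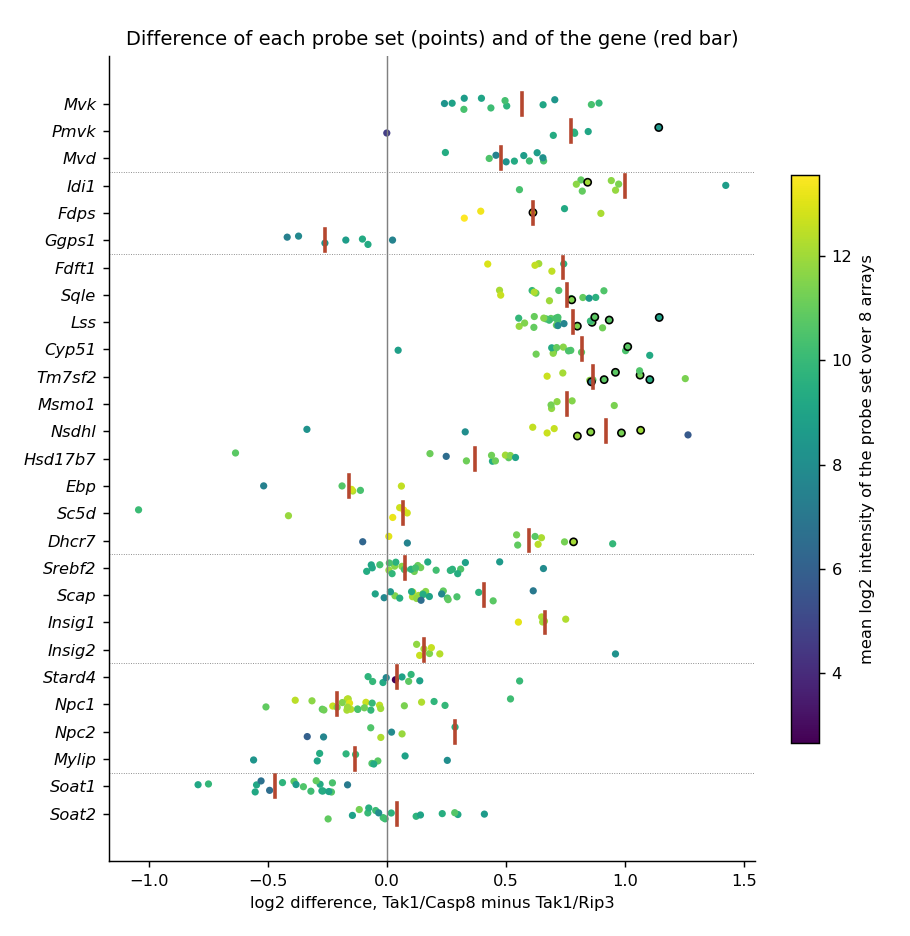
Difference of each single-symbol probe set of the 27 genes in log2 intensity, Tak1/Casp8 minus Tak1/Rip3, 1 row per gene and 1 point per probe set, coloured by its mean level, with a red bar at the gene's difference and a black ring around the 20 probe sets that passed. Points of the called enzymes lie right of 0 in 92 of 94 cases. Those of Scap lie right of 0 in 22 of 24 cases and those of Srebf2 in 21 of 25, mostly close to 0, and those of Npc1 in 5 of 27.

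SREBP factors also drive genes outside sterol synthesis. Of 14 further targets listed, most of them genes of fatty acid synthesis, 4 rose and none fell, with a median difference of 0.20. Over all genes 2.64% rose and 4.05% fell. At an unadjusted p under 0.05 stood 7 of the 14, all higher. Among them was Srebf1, the other SREBP gene, at 0.49, which missed the threshold (limma adjusted p = 0.0672). Its lowest Tak1/Casp8 array (10.49) and highest Tak1/Rip3 array (10.48) were nearly level. The list also held Mmab, a cobalamin enzyme, at -0.21 and Tmem97, a sterol regulator, at -0.18, neither of which passed. Lpin1, a phosphatidate phosphatase, measured 11.12, 11.53, 10.88 and 10.66 in Tak1/Casp8 livers, against 9.48, 10.40, 9.74 and 9.85 in Tak1/Rip3 livers, a difference of 1.18 ± 0.22 (SE, limma adjusted p = 0.0117). Acacb, the mitochondrial acetyl-CoA carboxylase, differed by 0.78 ± 0.17 (SE, limma adjusted p = 0.0241), and its call was lost in 5 of 8 fits without 1 array, namely without Tak1/Casp8 replicate 2 or any 1 of the 4 Tak1/Rip3 arrays (adjusted p 0.0515 to 0.0705). Fasn, fatty acid synthase, and Gpam, which starts glycerolipid synthesis, were the other 2 calls. Fasn was lost without Tak1/Casp8 replicate 2 or Tak1/Rip3 replicates 1 or 3 (adjusted p 0.0553 to 0.0583). Clock genes, which set the daily course of synthesis in liver, held no call among 17. Over all genes 6.69% passed, a share at which a list this short can hold none. The clock genes had a median difference of 0.26, and 2 had an unadjusted p under 0.05. Their mean deviation was 0.19, 0.03, -0.09 and 0.05 in Tak1/Casp8 livers, against -0.13, 0.18, -0.01 and -0.21 in Tak1/Rip3 livers, so the groups overlapped. Such a mean hides genes that move in opposite directions on the same array. In Tak1/Rip3 replicate 2, Npas2 (7.18) and Arntl (7.78) were lowest of their group and Dbp (10.45) highest. In Tak1/Casp8 replicate 4, Npas2 (6.29) and Arntl (7.09) were likewise lowest and Dbp (10.23) highest. Other clock genes differed between these 2 arrays. Nr1d1 was highest of its group in that Tak1/Rip3 array (11.21) and lowest in that Tak1/Casp8 array (10.43). Cry1 (6.99 and 8.03) and Nfil3 (8.21 and 9.24) were lowest in the former and highest in the latter. The part of the clock genes in the enzyme values was not tested.

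On the outflow side, 9 genes of LXR and sterol efflux held no call, against 6.69% of all genes. Their median was 0.16, and 2 had an unadjusted p under 0.05. Abcg8, a subunit of the pump that moves sterols into bile, differed by 0.40 ± 0.11 (SE, limma adjusted p = 0.0558). Of 14 genes of sterol transport and ester hydrolysis, Osbpl9, a lipid transfer protein, rose by 0.39 ± 0.09 (SE, limma adjusted p = 0.0337), a call lost in 6 of 8 fits without 1 array (adjusted p at least 0.0534) and kept without Tak1/Rip3 replicate 2 or 3. Nceh1, a hydrolase of cholesterol esters, measured 9.56, 9.64, 9.50 and 10.13 in Tak1/Casp8 livers, against 10.65, 10.73, 10.81 and 10.63 in Tak1/Rip3 livers. The groups did not overlap, and Nceh1 fell by 1.00 ± 0.14 on the log2 scale (SE, limma adjusted p = 0.00300).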

How the data were processed

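Total RNA of 8 livers was labelled with biotin and hybridised to Affymetrix mouse arrays, per the labels' protocols, and grouped by the genotype label. The deposited values are on a log2 scale. The submitters' processing notes list RMA, with no version. RMA evens out shifts shared by most genes and compresses small differences near the background. Arrays have no depth, so their number limits the precision.

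Per gene and array, the median was taken over probe sets with that symbol alone in the platform annotation, giving 19560 genes. The groups were compared with limma 3.58.1 in R 4.3.3 (lmFit and eBayes, group as the only term, two-sided). P-values were adjusted by Benjamini-Hochberg over all genes, with a threshold of 0.05. On simulated data with known changes, the method recovered 28.4% of log2 changes of 0.5, 97% of those of 1 and 100% of those of 2. Of 161 calls there, 11 were false. A gene near 0.5 that was not called may thus still differ. Levels are not compared between genes, since probes differ in brightness.

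The 29 genes, the related lists and the tests were chosen with earlier results of these data known. Every listed gene is accounted for. Single array values are given for genes that passed, for the sensing genes and for those near the threshold, and up to 4 genes by adjusted p were named in a related list. Among the SREBP targets and the clock genes, others were named too. Start regions came from RefSeq, build GRCm38.p6, used for symbols and sequence only, and 6 genes had none at hand. Alternatives were other normalisations, summaries of probe sets, filters, variance models, thresholds and omitted arrays. Cage, litter, scan or batch were not given in the sources used here.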

Additional observations from a re-analysis of the deposited data

Results flagged for a closer look

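The 27 genes and the mean of the enzymes gave 56 sets of 4 arrays, 1 per group. In 1 of them an array stood past Dixon's critical value for its distance from the others (ratio 0.915), which chance gives in about 1 of 20 sets. It was Soat2, the cholesterol esterifying enzyme of mouse hepatocytes, in Tak1/Casp8 livers. Replicate 3 measured 10.32 and the other 3 arrays between 9.51 and 9.58. Without replicate 3 the Soat2 difference was -0.15, against 0.04 with all arrays. The same replicate was the lowest Tak1/Casp8 array in 15 of 17 enzymes of synthesis.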

How the results depend on the processing

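The 9 calls among the 27 genes remained 9 under quantile normalisation, and the count lay between 6 and 14 when 1 array was left out. Idi1, Fdps, Lss, Tm7sf2 and Nsdhl passed in all 8 of those fits. A threshold of 0.01 left 3 calls, and 0.10 gave 15, of which 14 higher and 1 lower. A test with separate, unmoderated variances left 0 calls in the list and 115 over all genes. Leaving out Tak1/Casp8 replicate 3 and Tak1/Rip3 replicate 2, picked after seeing the data as nearest the other group in the enzymes, gave 15 calls, all 15 higher, a gain the choice favours. Over all genes 1308 passed, and 759 with the brightest probe set, 406 at 0.01, 2130 at 0.10 and 706 to 1347 without 1 array. The enzyme median of 0.74 became 0.50 with the brightest probe set, where Fdps, Fdft1, Sqle, Lss and Cyp51 lost their calls (with the brighter probe sets Fdps alone, at 0.39, adjusted p = 0.0607), and lay between 0.61 and 0.83 without 1 array. The 20 probe set calls became 62 at 0.10, and 0 to 23 without 1 array.

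Some differences turned sign, among them the called Ripk3 (0.98) and Pdss1 (-0.59). With the mean of probe sets Sc5d was -0.20 and Npc2 -0.046. With the brightest probe set Npc2 was -0.025, Soat2 -0.12, Ripk3 -0.036 and Pdss1 0.020. With the brighter probe sets Ebp was 0.034, Npc2 -0.0017 and Soat2 -0.026. Without 1 array Srebf2 lay between -0.0037 and 0.13, Sc5d between -0.020 and 0.15, Stard4 between -0.14 and 0.17, and Soat2 between -0.15 and 0.13. Without those 2 arrays Insig2 was -0.034 and Soat2 -0.18. Where a call changed, the cause was not tested. No paired analysis was possible because the replicate numbers only name the arrays and the labels pair no mice across the groups.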

Other observations

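Genes beside the sterol route gave 1 call in each list below, and 6.69% of all genes passed in either direction. Of 12 measured genes of acetyl-CoA supply, ketone bodies and redox partners, 1 rose and none fell, with a median difference of 0.13. At an unadjusted p under 0.05 stood 4 of the 12, all higher. The gene called was Acss2, an SREBP target that makes acetyl-CoA from acetate. Acss2 measured 11.29, 11.50, 11.22 and 11.94 in Tak1/Casp8 livers, against 10.48, 10.63, 10.48 and 10.64 in Tak1/Rip3 livers, a difference of 0.93 ± 0.15 (SE, limma adjusted p = 0.00617) or 1.90-fold. The groups did not overlap, and the call held in all 8 fits without 1 array.

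Of 13 genes that use farnesyl diphosphate for prenyl groups, dolichol or ubiquinone, 1 fell and none rose. Pdss1, a subunit of the enzyme that builds the ubiquinone side chain, measured 7.14, 7.27, 7.01 and 7.26 in Tak1/Casp8 livers, against 7.69, 7.68, 7.78 and 7.88 in Tak1/Rip3 livers, a difference of -0.59 ± 0.10 (SE, limma adjusted p = 0.00668). Its brightest probe set differed by 0.02. Of 7 enzymes of oxysterols and the sterol side chain, Cyp39a1, an oxysterol hydroxylase, rose by 0.49 ± 0.13 (SE, limma adjusted p = 0.0459), a call kept in 1 of 8 fits without 1 array.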
